A study of Mus musculus with 12 samples.

Results

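The 9 genes described here encode proteins of the sarcomere and its attachments that are known to answer to stretch or load. They are the muscle ankyrin repeat genes Ankrd1, Ankrd2 and Ankrd23, the LIM protein genes Csrp3, Fhl1, Fhl2 and Fhl3, and the Xin genes Xirp1 and Xirp2. They were taken by name from 19938 genes that had a probe set of their own, and the names were chosen with the difference between the labelled groups already known. Each of the 9 had 1 probe set paired with its symbol alone. The samples were quadriceps muscles of C57Bl/6 mice at postnatal day 7, with 6 arrays labelled KO, for cofilin-2 null mice, and 6 labelled WT, for wild type littermates. The mice were not pooled, and the total RNA of each went onto an Affymetrix Mouse Gene 1.0 ST array of its own. Whether the null allele was confined to muscle is not given in the sources used here. Cofilin-2, the product of Cfl2, is the muscle form of a protein that severs actin filaments, and mice without it become weak soon after birth and die young.

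Cfl2 itself ran against the labels. Its log2 level lay between 12.31 and 12.43 on the arrays labelled KO and between 4.92 and 7.71 on those labelled WT. All directions below are those of the labels as deposited, and no array was moved. They oppose the directions that the study's text gives for genes that include Cfl2, Lep, Ankrd1, Myh3, Myh8, Itga5 and Vcl. If the labels of the groups were exchanged, every direction below would turn round. Cfl2, the gene knocked out, averaged 12.38 under the label KO and 6.06 under the label WT. Lep, which the study lists as lowered in the null mice, averaged 7.43 under KO and 5.31 under WT. Ankrd1, which it lists as raised, averaged 9.16 under KO and 11.39 under WT. An exchange of the labels was not tested. The 8 markers of skeletal muscle averaged 12.30 to 12.52 on the arrays labelled KO and 12.42 to 12.65 on those labelled WT, while 8 heart markers averaged 6.29 to 6.47 on the arrays labelled KO and 6.41 to 6.56 on those labelled WT.

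Ankrd1, Ankrd2 and Ankrd23 bind the titin spring in the I-band and can also enter the nucleus, where they act on transcription. Their transcripts are known to be induced by stretch, injury or disuse of muscle. Csrp3, also called muscle LIM protein, sits at the Z-disc and assists myogenic transcription factors, and the FHL proteins are built almost entirely of LIM zinc fingers, which bind other proteins. Xirp1 and Xirp2 bind actin filaments through Xin repeats and gather where myofibrils end at the membrane, and Xirp1 is known as a marker of fibre damage and repair.

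The windows before the gene starts are shown first for the members in which a binding motif of a load-linked transcription factor was found. RefSeq (GRCm38.p6) gave 12 windows of 300 bases, 250 before and 50 after a start, for 8 of the 9 members. None was found for Xirp1. Capitals mark an M-CAT element (CATTCC or, on the other strand, GGAATG), which TEAD factors bind, a CArG box, which SRF binds, or a MEF2 motif. All were searched on both strands, and no 2 of the capitalised matches overlap. Ankrd1 is printed for its 2 M-CAT elements, Ankrd23 for 1, Xirp2 for a MEF2 motif, Fhl1 for a CArG box, and Fhl2 for a CArG box and a MEF2 motif.
Ankrd1, chr19:36119795-36120094, minus strand: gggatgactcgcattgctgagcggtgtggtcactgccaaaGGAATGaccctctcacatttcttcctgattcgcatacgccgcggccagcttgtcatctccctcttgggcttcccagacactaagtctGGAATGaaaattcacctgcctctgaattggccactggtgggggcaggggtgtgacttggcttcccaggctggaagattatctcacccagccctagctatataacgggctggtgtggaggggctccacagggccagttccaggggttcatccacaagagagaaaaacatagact
Ankrd23, chr1:36535690-36535989, minus strand: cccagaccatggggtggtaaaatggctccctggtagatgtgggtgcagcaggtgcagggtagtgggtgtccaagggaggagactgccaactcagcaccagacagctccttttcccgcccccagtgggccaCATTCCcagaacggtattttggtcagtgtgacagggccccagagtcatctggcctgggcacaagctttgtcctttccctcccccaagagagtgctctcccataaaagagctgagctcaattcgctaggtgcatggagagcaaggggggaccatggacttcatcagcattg
Xirp2, chr2:67445752-67446051, plus strand: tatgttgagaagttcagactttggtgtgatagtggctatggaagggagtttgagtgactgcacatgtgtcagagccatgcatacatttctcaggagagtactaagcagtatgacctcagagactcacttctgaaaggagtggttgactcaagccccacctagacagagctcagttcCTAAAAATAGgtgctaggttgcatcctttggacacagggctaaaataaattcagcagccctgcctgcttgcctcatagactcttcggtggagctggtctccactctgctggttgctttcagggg
Fhl1, chrX:56779433-56779732, plus strand: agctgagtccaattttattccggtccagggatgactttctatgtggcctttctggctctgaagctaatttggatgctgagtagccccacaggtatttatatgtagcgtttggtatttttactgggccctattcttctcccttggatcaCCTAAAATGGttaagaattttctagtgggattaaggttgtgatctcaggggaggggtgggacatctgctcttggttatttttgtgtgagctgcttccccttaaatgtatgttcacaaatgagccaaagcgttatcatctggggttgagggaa
Fhl2, chr1:43196712-43197011, minus strand: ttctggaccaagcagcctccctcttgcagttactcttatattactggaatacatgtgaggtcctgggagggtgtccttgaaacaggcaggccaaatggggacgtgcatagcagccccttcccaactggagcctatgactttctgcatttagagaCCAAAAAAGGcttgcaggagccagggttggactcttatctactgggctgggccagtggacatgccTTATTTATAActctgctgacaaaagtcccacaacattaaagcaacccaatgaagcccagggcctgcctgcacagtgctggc

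The M-CAT elements of Ankrd1 began 210 and 123 bases before its start, and that of the Ankrd23 window 120 bases before. The other window of Ankrd23 held 1 M-CAT element 36 bases after its start, and the second window of Fhl2 held the CArG box ccttatatgg 31 bases before the start. None of the 3 motifs was held by either window of Csrp3, the other window of Fhl1, the window of Ankrd2 or that of Fhl3. Of all 32851 windows, 14.7% held an M-CAT element, 1.63% a CArG box and 3.19% a MEF2 motif. An E-box (CANNTG), which myogenic factors bind, occurred in 72.3% of all windows. A match describes letters only, and which of these starts quadriceps muscle uses was not measured.

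The mean level of all 9 genes was lower on the arrays labelled KO. Since the members were chosen on this contrast, their differences are given as a description with no test. Of the 9, 8 were past the threshold of the fit across all probe sets (limma, adjusted p under 0.05) and lower, and Ankrd23 was not past it. In that fit 12.4% of 21789 probe sets were past the threshold and lower, and 19.5% were past it and higher (2702 and 4250). With each array centred on its median the numbers were 1557 lower and 5469 higher. The labelled groups did not overlap for 6 of the 9, where 4.92% of all probe sets had every array labelled KO below every array labelled WT and 10.5% the reverse. The median log2 difference of the 9 genes was -1.0, that of all tested probe sets -0.02. In whole muscle, fewer cells of a type and less RNA per cell cannot be told apart.

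**Figure D1:**
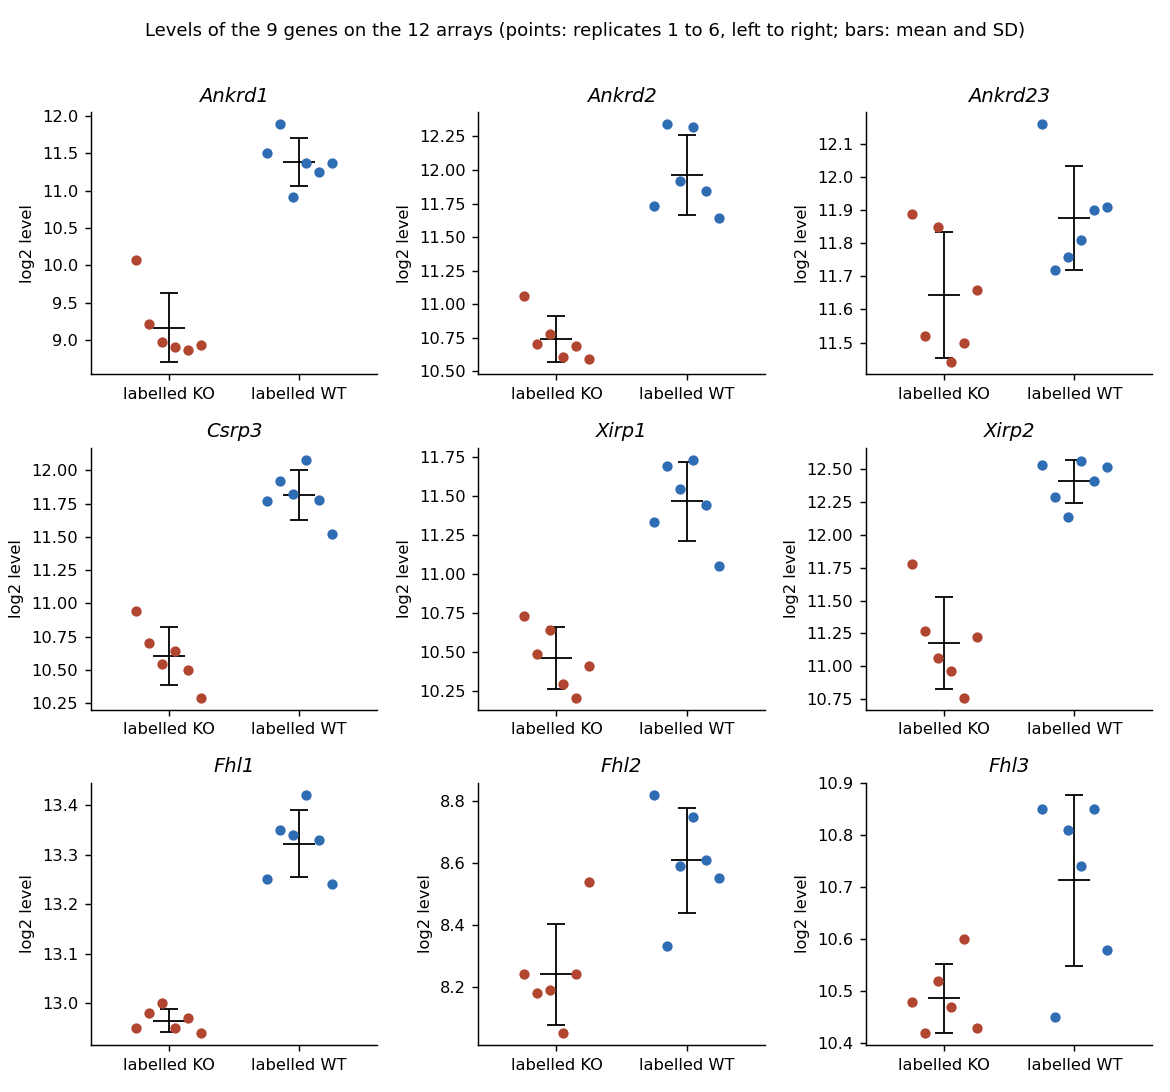
Log2 level of each of the 9 genes (y axis, a scale of its own in each panel, not starting at 0) on the arrays labelled KO and labelled WT; points are single arrays and bars the mean and SD (n = 6 each). The groups stand apart for Ankrd1, Ankrd2, Csrp3, Xirp1, Xirp2 and Fhl1 and overlap for Ankrd23, Fhl2 and Fhl3.

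Among the ankyrin repeat genes the differences were of very unequal size. Ankrd1, the cardiac ankyrin repeat protein, lay at 8.87 to 10.07 (median 8.95) on the arrays labelled KO, against 10.92 to 11.89 (median 11.37) on those labelled WT. The groups were 0.85 apart at their nearest arrays, and 5 of the arrays labelled KO lay within 0.35 of each other, with the array labelled KO1 (10.07) above them. The mean was 9.16 ± 0.46 on the arrays labelled KO and 11.39 ± 0.32 on the arrays labelled WT (SD, n = 6 each), a log2 difference of -2.22 ± 0.20 (SE). Ankrd1 was thus 4.67-fold lower and had the 3rd most negative difference of the 21789 probe sets.

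Ankrd2, which is best known from stretched and slow muscle, lay at 10.59 to 11.06 (median 10.70) on the arrays labelled KO. On the arrays labelled WT it lay at 11.64 to 12.34 (median 11.88), with WT2 (12.34) and WT4 (12.32) above the other four. The groups did not overlap, and the log2 difference was -1.23 ± 0.12 (SE), which is 2.34-fold lower. Ankrd23, the third of the family, lay at 11.44 to 11.89 (median 11.59) on the arrays labelled KO, against 11.72 to 12.16 (median 11.86) on those labelled WT. Its groups overlapped, since the arrays labelled KO1 (11.89) and KO3 (11.85) lay within the range labelled WT. The log2 difference of Ankrd23 was -0.23 ± 0.09 (SE).

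Csrp3 had a log2 level of 10.29 to 10.94 (median 10.59) on the arrays labelled KO, against 11.52 to 12.08 (median 11.80) on those labelled WT. The groups did not overlap, and their nearest arrays were 0.58 apart. The means were 10.60 ± 0.22 on the arrays labelled KO and 11.82 ± 0.19 on the arrays labelled WT (SD, n = 6 each), a log2 difference of -1.21 ± 0.10 (SE) or 2.32-fold lower. Its closest relatives, the LIM protein genes Csrp1 and Csrp2, differed less, a contrast that was not tested. Csrp1 had a log2 difference of -0.17 ± 0.05 (SE, limma adjusted p = 0.0254), and Csrp2 one of 0.10 ± 0.06 (SE, limma adjusted p = 0.252).

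Both Xin genes were lower on the arrays labelled KO. Xirp1 lay at 10.21 to 10.73 (median 10.45) on the arrays labelled KO and at 11.05 to 11.73 (median 11.49) on those labelled WT, of which WT6 was the lowest. Xirp2 lay at 10.76 to 11.78 (median 11.14) on the arrays labelled KO and at 12.14 to 12.56 (median 12.47) on those labelled WT. Neither gene overlapped between the groups, although the array labelled KO1 came within 0.36 of the lowest array labelled WT in Xirp2. The log2 differences were -1.0 ± 0.12 for Xirp1 and -1.23 ± 0.14 for Xirp2 (SE), or 2.0-fold and 2.35-fold lower.

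The FHL genes differed less. Fhl1, which is abundant in skeletal muscle and lies on the X chromosome, was at 12.94 to 13.00 (median 12.96) on the arrays labelled KO, against 13.24 to 13.42 (median 13.34) on those labelled WT. All 6 arrays labelled KO fell within 0.06 of each other, so that the groups stood apart at a log2 difference of only -0.36 ± 0.04 (SE), 1.28-fold lower. These levels are near the top of the table, where the highest value is 14.02. The labels give no sex, and Xist, the RNA of the inactive X chromosome, ran from 4.78 to 11.67 over the 12 arrays. With the Xist level in the fit the difference of Fhl1 was -0.37.

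Fhl2, best known from heart, lay at 8.05 to 8.54 (median 8.22) on the arrays labelled KO, against 8.33 to 8.82 (median 8.60) on those labelled WT. The overlap came from the array labelled KO6 (8.54) and the array labelled WT2 (8.33). Fhl3 lay at 10.42 to 10.60 (median 10.48) on the arrays labelled KO, against 10.45 to 10.85 (median 10.78) on those labelled WT, and the arrays labelled WT2 (10.45) and WT6 (10.58) lay within the range labelled KO. The log2 differences were -0.37 ± 0.09 and -0.23 ± 0.07 (SE). The call of Fhl3 was lost with each array centred on its median (-0.18) and without the array labelled WT5 (-0.20).

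**Figure D2:**
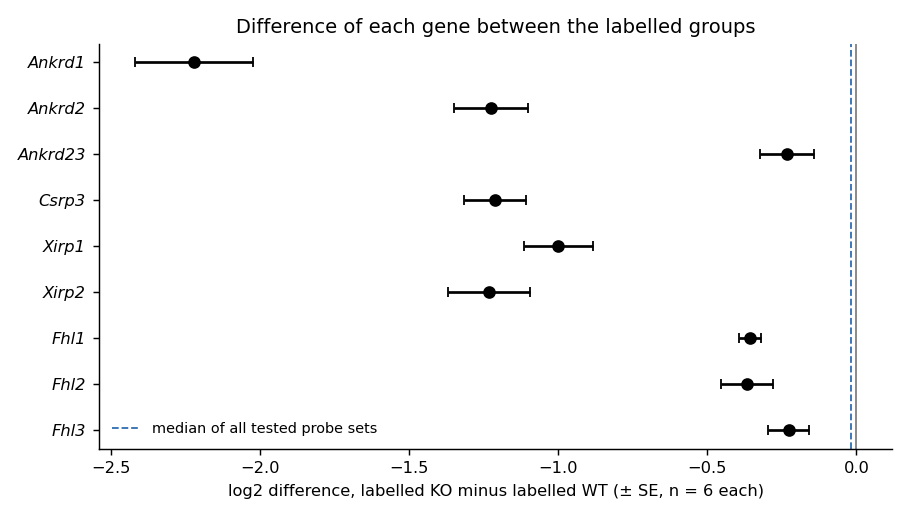
Log2 difference, labelled KO minus labelled WT (x axis, ± SE, n = 6 arrays each), of the 9 genes (y axis), with a dashed line at the median of all tested probe sets (-0.02). All 9 points lie left of 0, with Ankrd1 at -2.22 and Ankrd23 and Fhl3 at -0.23.

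Markers of other cell types also differed between the labelled groups. For the counts below, 19.5% of all probe sets passed as higher on the arrays labelled KO and 12.4% as lower. Without dim probe sets 3664 of 10895 passed as higher and 1792 as lower. Of 8 adipocyte markers, 4 passed as higher on the arrays labelled KO and 0 as lower, and the list averaged 8.52 to 10.14 there against 8.53 to 9.45 on the arrays labelled WT. With the adipocyte level as a covariate the differences of the 9 genes ran from -2.28 for Ankrd1 to -0.19 for Fhl3, and the call of Fhl3 was lost. All 5 macrophage markers were higher on the arrays labelled KO (list average 8.76 to 9.06, against 8.13 to 8.55 on the arrays labelled WT), and so were 4 of 5 endothelial and 5 of 6 fibroblast markers. The remaining fibroblast marker, Pdgfra, was lower (-0.29 ± 0.09 SE, limma adjusted p = 0.0249). Of the 8 skeletal muscle markers 3 passed as lower on the arrays labelled KO and 0 as higher, and the desmin gene Des had the largest of these differences (-0.25 ± 0.04 SE, limma adjusted p = 0.000291). Smooth muscle markers were 1 higher and 1 lower of 6 (16.7% each), near the shares of all probe sets. Of the 8 heart markers 2 passed as higher (25%) and 3 as lower (37.5%). The part of macrophages, vessels and fibroblasts in the differences was not tested.

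Partners of these proteins at titin and the Z-disc passed the threshold in both directions. Of 26 measured genes of that list, 6 passed as higher on the arrays labelled KO (23.1%, against 19.5% of all probe sets). Another 12 passed as lower (46.2%, against 12.4%), and the median log2 difference was -0.15. Myoz2, the calsarcin of slow and heart muscle, fell by 0.55 ± 0.05 (SE), while Myoz3, a calsarcin of fast muscle, rose by 1.13 ± 0.17. Myoz1, of the same family, had a log2 difference of 0.15 ± 0.05 (SE, limma adjusted p = 0.0185), and its groups overlapped. Palld, which cross-links actin, and Mypn, or myopalladin, which binds Ankrd1, had log2 differences of 0.50 ± 0.06 and 0.31 ± 0.06 (SE). Ttn itself, which encodes titin, differed by -0.40 ± 0.10 and Tcap, which caps titin and binds Csrp3, by -0.42 ± 0.09 (SE, limma adjusted p = 0.00697 and 0.00215).

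Among 27 partners of Xin and proteins of muscle attachment sites, 2 passed as higher on the arrays labelled KO and 12 as lower, with a median of -0.12. Flnc, the muscle filamin that binds Xin, lay at 11.70 ± 0.22 on the arrays labelled KO and 12.34 ± 0.17 on the arrays labelled WT (SD, n = 6 each). Enah, an actin elongator that Xin also binds, fell by 0.67 ± 0.07 and Sorbs2 by 0.78 ± 0.07 (SE). Pgm5, or aciculin, which binds Xin and filamin at the membrane, ran the other way with a log2 difference of 0.32 ± 0.05 (SE). Of 32 other LIM protein genes 7 were past the threshold and higher (21.9%) and 10 lower (31.2%), with a median of -0.04. Crip1 and Crip3, small LIM proteins, rose by 0.70 ± 0.12 and 0.72 ± 0.10, while Fhl5, the FHL gene best known from testis, fell by 0.88 ± 0.20 (SE).

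In the list of YAP, TAZ and TEAD genes, a pathway that answers to load, 18 of 23 were not past the threshold. Of the 23, 2 were higher (8.7%, against 19.5% of all probe sets) and 3 lower (13%, against 12.4%). The median of the list was -0.02. The familiar YAP targets Ccn1 and Ccn2 were among the lower, Ccn1 with -0.92 ± 0.21 and Ccn2 with -0.73 ± 0.16 (SE, limma adjusted p = 0.00469 and 0.00342). Yap1 itself had a log2 difference of 0.01 ± 0.08 and Tead1 one of -0.06 ± 0.06, while Tead3 differed by -0.48 ± 0.06 (SE). Of 20 targets and cofactors of SRF 4 were higher (20%) and 7 lower (35%), with a median of -0.07. Mrtfa, the SRF cofactor that senses free actin, rose by 0.90 ± 0.11, and the smooth muscle gene Cnn1 fell by 0.95 ± 0.20 (SE).

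In the list of developing or regenerating fibres 1 of 14 genes passed as higher on the arrays labelled KO and 5 as lower, with a median of 0.01. Myh3, the embryonic myosin, lay at 11.10 ± 0.36 on the arrays labelled KO and 12.51 ± 0.14 on the arrays labelled WT (SD, n = 6 each). The study reports Myh3 as raised in the null mice, by quantitative PCR too. Ncam1 and Nes, an adhesion molecule and an intermediate filament of young fibres, fell by 0.75 ± 0.05 and 0.73 ± 0.09 (SE). Mymk, a fusion protein of myoblasts, was the gene that rose, by 0.45 ± 0.09 (SE, limma adjusted p = 0.00137). Of 12 slow fibre genes 2 passed as higher (16.7%) and 6 as lower (50%), with a median of -0.34. Among the lower were Tnni1 and Tnnc1, troponins of slow fibres, at -0.66 ± 0.07 and -0.59 ± 0.13 (SE). The higher ones were the slow myosin light chain gene Myl3 and the slow tropomyosin gene Tpm3, with 0.60 ± 0.18 and 0.36 ± 0.07 (SE, limma adjusted p = 0.0217 and 0.00132). Of 13 fast fibre genes 3 passed as higher (23.1%) and 4 as lower (30.8%), with a median of -0.05. Myh4, the myosin of the fastest fibres, rose by 1.70 ± 0.27, Actn3, the actinin of fast fibres, by 0.54 ± 0.07 and Mybpc2 by 0.29 ± 0.05, while Myh2 fell by 0.45 ± 0.12 (SE). The other lower genes, Tnnt3, Tnni2 and Mylpf, had smaller differences of -0.12, -0.13 and -0.14. These lists were written with earlier results of the arrays known, share genes with each other and were not tested as sets. In several the share that passed as higher was near the 19.5% of all probe sets. It was 21.9% for other LIM proteins, 20% for SRF, 16.7% for slow fibres and 23.1% for fast fibres. The shares that passed as lower in the same lists were 31.2%, 35%, 50% and 30.8%, against 12.4% of all probe sets. With dim probe sets (mean level under 7.15) left out, 3664 of 10895 passed as higher and 1792 as lower.

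**Figure D3:**
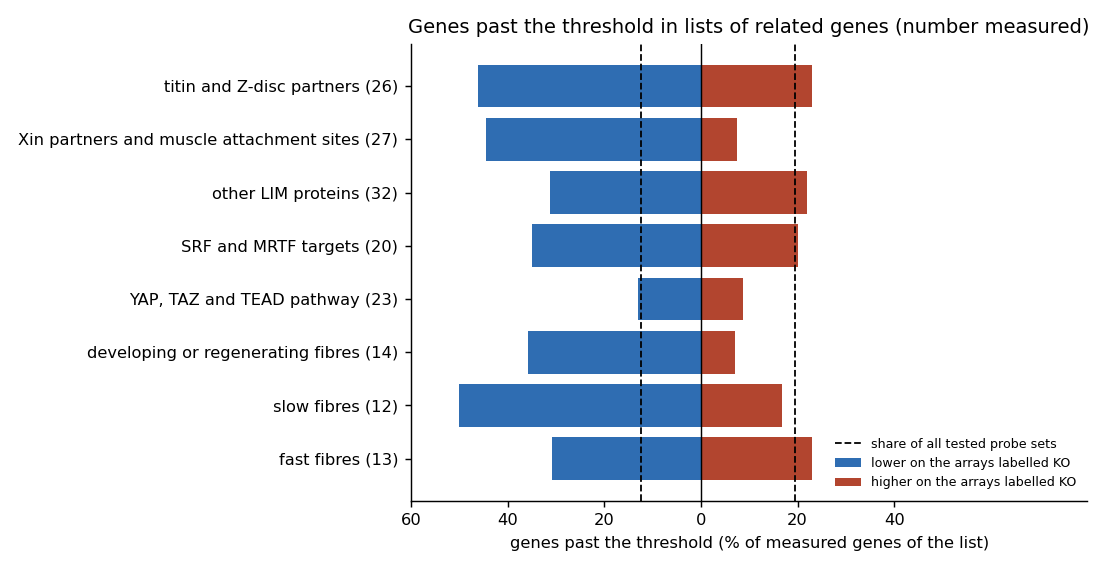
Share of the measured genes of each list that passed the threshold (x axis, percent), with genes lower on the arrays labelled KO to the left of 0 and genes higher to the right; the number of measured genes stands in parentheses, and dashed lines give the shares of all tested probe sets (12.4% lower, 19.5% higher). In the YAP, TAZ and TEAD list 13% were lower and 8.7% higher.

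Within the labelled groups single arrays stood out in several members at once. The array labelled KO1 was the highest of its group in 6 of the 9 genes, the ankyrin repeat genes, Csrp3 and the Xin genes, and in none of the FHL genes. It stood 0.91 above the group mean in Ankrd1 and 0.61 above it in Xirp2. Among the arrays labelled WT, WT4 was highest in Csrp3, Xirp1, Xirp2 and Fhl1, and WT6 was lowest in Ankrd2, Csrp3, Xirp1 and Fhl1. The array labelled WT4 also carried a neutrophil signal, with a marker average of 9.23 against 5.82 to 6.23 on the others labelled WT, and WT6 had the lowest array weight, 0.325. The part of either in these deviations was not tested. With the arrays labelled KO1, WT4 and WT6 left out together, a choice made after seeing the data, 8 members were still past the threshold and lower, and Ankrd1 differed by -2.41.

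**Figure D4:**
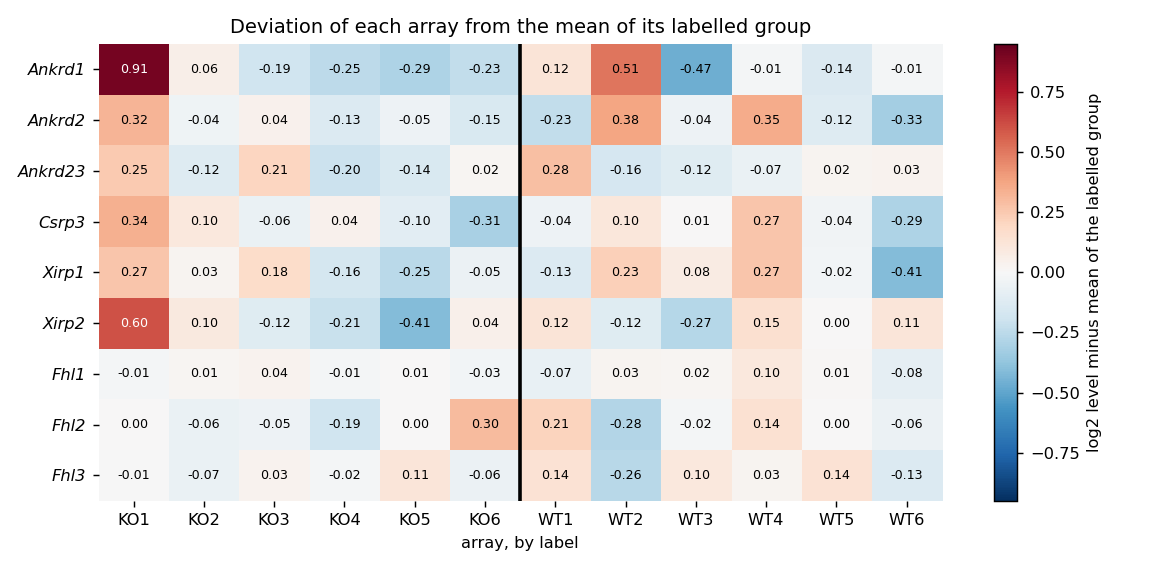
Log2 level of each of the 9 genes (rows) on each of the 12 arrays (columns, KO1 to KO6 left and WT1 to WT6 right of the line), minus the mean of the labelled group; red is above and blue below that mean. The array labelled KO1 is above its group mean by 0.25 to 0.91 in the upper 6 rows and within 0.02 of it in the FHL rows.

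Csrp3, Xirp1 and Fhl1 ranked the 6 arrays labelled WT in exactly the same order, from WT4 through WT2, WT3, WT5 and WT1 to WT6. Some steps in this order were small. Fhl1 lay at 13.35, 13.34 and 13.33 on WT2, WT3 and WT5, and Csrp3 at 11.78 and 11.77 on WT5 and WT1. For Csrp3 and Xirp1 Pearson's r was 0.96 (exact permutation p = 0.00139, adjusted p = 0.1) and Spearman's rho 1 (exact permutation p = 0.00278, adjusted p = 0.0667). With WT4 and WT6, the 2 arrays farthest from the median of Csrp3, left out, r was 0.95. For Csrp3 and Fhl1 r was 0.90 (exact permutation p = 0.0181, adjusted p = 0.214) and fell to 0.65 without WT4 and WT6. For Xirp1 and Fhl1 r was 0.91 (exact permutation p = 0.0181, adjusted p = 0.214), and 0.85 without them. Ankrd2 followed the same arrays, with r = 0.92 against Xirp1 (exact permutation p = 0.00694, adjusted p = 0.125; rho = 0.94, exact permutation p = 0.0167, adjusted p = 0.15), and r was 0.96 without WT2 and WT4. Among the arrays labelled KO the closest pair was Ankrd1 and Xirp2, with r = 0.92 (exact permutation p = 0.00417, adjusted p = 0.125; rho = 0.94, exact permutation p = 0.0167, adjusted p = 0.15), and r was 0.73 without KO1 and KO2. The r of Ankrd1 and Ankrd2 there was 0.91 (exact permutation p = 0.05, adjusted p = 0.264; rho = 0.71, exact permutation p = 0.136, adjusted p = 0.467). It dropped to 0.40 without KO1 and KO2 and to 0.29 without KO1 alone, so that it rests on that array. In all, 72 such tests were made by r, 36 pairs in each labelled group, and the same 72 again by rho, all two-sided. None passed after adjustment, made over the 72 of each measure on its own. With 720 orders of 6 arrays no exact p could fall below 0.00139. That value on its own became an adjusted p of 0.1, so that 1 pair alone could not pass. By r 5 pairs among the arrays labelled KO and 6 among those labelled WT had an unadjusted p under 0.05.

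The genes most like each member within the groups were sought among 9968 genes of above-median level, by Pearson's r of the deviations from the labelled group means over the 12 arrays. A search of this size gives high values for any gene, so that they are a description. For Ankrd1 these were Ttll7 (0.93), Hagh (0.93) and Nt5dc3 (0.91), for Ankrd2 Gbe1, Pdpk1 and Tcaim (0.90 each), and for Ankrd23 Adam17 (0.92), Dhx37 (0.91) and Asb16 (0.87). Csrp3 was closest to Myh6 (0.95), the heart alpha myosin gene, whose sequence is close to that of Myh7, followed by Slc12a7 and Myom3 (0.89 each). Xirp1 was closest to Arfgef2 (0.95) and Xirp2 to Ralgapb (0.97), with Safb and the dystrophin gene Dmd (0.95 each) next. Fhl1 was closest to Cdkn2d (0.97) and then Gtpbp1 and the myosin light chain gene Myl1 (0.95 each). Fhl2 was closest to Strada (0.94) and Fhl3 to Dzip3 (0.97). Dmd was itself lower on the arrays labelled KO (-0.98 ± 0.12 SE), as were Ttll7 (-0.97 ± 0.14) and Myom3 (-1.06 ± 0.11), while Asb16 was higher (0.99 ± 0.08).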

How the data were processed

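The deposited table holds gene level values of 12 arrays. Per the study's methods, the authors extracted features with GCOS and made normalized values with Affymetrix Power Tools; no source used here names the version, the summary method or the build. The log2 scale of the deposited values was read from the values (3.11 to 14.02). Groups came from the sample titles. Of 35556 rows, the 21789 with 1 symbol in the platform annotation were tested with limma 3.58.1 in R 4.3.3 (lmFit and eBayes, no covariate, no further filter or normalization), adjusted by Benjamini-Hochberg at 0.05. The probe set with the highest mean stood for a gene. Log2 differences were turned into folds, and precision is limited by having 6 arrays a group.

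The members and lists were chosen with earlier results of these data known. Named from a list are mainly up to 4 genes past the threshold with the largest difference, and other genes of it were picked after their values were seen. Some genes of the lists are not reported here. The fit was tested on simulated data. The main fit was planned without pairing, although the mice were littermates. Same-numbered arrays did not all deviate together over the tested probe sets (r from -0.22 to 0.17). A fit with the replicate number as a block is given below. The planned protein comparison was not run.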

Additional observations from a re-analysis of the deposited data

Results flagged for a closer look

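Among the 9 genes, 1 of 18 sets of 6 arrays held a value far from the rest by Dixon's ratio. Ankrd1 lay at 10.07 on the array labelled KO1, and the nearest of the others labelled KO lay at 9.22, a gap of 0.708 of the range. Over the 41 genes examined, 82 sets in all, the only other such value was that of Mrtfa on the array labelled WT6 (7.65, with the nearest at 8.22). Chance gives about 1 in 20 sets.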

How the results depend on the processing

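Each of the 9 differences kept its sign under quantile normalization, median centring, array weights, the replicate block, the adipocyte and Xist covariates and with any array left out, where Ankrd1 ranged from -2.41 to -2.12 and Fhl3 from -0.28 to -0.20. That of Fhl1 moved by over 1 SD with median centring, to -0.31. The number of members lower and past the threshold ran from 7 to 9 with 1 array left out, and Ankrd23 passed without KO1, KO3 or WT2, with array weights, without dim probe sets and with the replicate block. With that block 6074 probe sets were past the threshold. With the adipocyte level as a covariate 3741 were, and the lists had 10 (other LIM proteins), 7 (SRF), 4 (slow fibres) and 3 (fast fibres). The YAP list had 8 under quantile normalization and 9 by the methods' t-test unadjusted. That test gave 9003 probe sets unadjusted and 6342 after Benjamini-Hochberg. No background was measured, so that dim levels have no known floor.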
